A study of Homo sapiens with 4 samples.

Results

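The nuclear genes for the subunits of the 5 oxidative phosphorylation complexes were followed in H1299 cells, a human non-small cell lung carcinoma line, that had been given a ginseng nanoparticle preparation or phosphate-buffered saline (PBS). Members were protein-coding genes whose symbol begins with NDUFA, NDUFB, NDUFC, NDUFS or NDUFV and a digit (complex I), SDHA to SDHD (complex II), and symbols beginning with UQCR (complex III), COX4 to COX8 (complex IV) or ATP5 (complex V). Assembly factors and 2 read-through genes were left out. The rule gave 87 genes of 61541 gene rows: 38 of complex I, 4 of complex II, 9 of complex III, 17 of complex IV and 19 of complex V. Of these, 80 had enough counts to be tested among 15778 genes. The 7 not tested were NDUFA7, COX4I2, COX6A2, COX6B2, COX7A1, COX8C and ATP5MGL. Some subunits do not carry these symbols, such as cytochrome c1 (CYC1) and NDUFAB1 of complex I, and are not members. The rule used symbols only and no measured value, but it was chosen with earlier results of these data known.

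The groups were the line under PBS (2 libraries) and under the nanoparticles (2 libraries), each a stranded library of polyadenylated RNA from unsorted cultured cells without other alleles or agents. Per the series text, nanoparticles were made by grinding and extruding fresh seeds, leaves, stems and roots, and the study asked how they act on cancer cell proliferation and migration. The labels do not give the plant part, dose or exposure time used for sequencing, nor say that the replicates were separate cultures. A p-value here thus measures how far these 4 libraries vary, and that variation may be technical. The treatment label set the groups, although the 2 nanoparticle titles also say control.

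Counts on genes ran from 22252686 to 24979081 per library, and the 87 genes held 1.08% and 1.07% of them in PBS and 1.041% and 1.029% with nanoparticles. The epithelial keratins KRT8 and KRT18 were at 586.3 to 1031 CPM (counts scaled to library size and composition) in the 4 libraries. Vimentin (VIM) was higher still, at 2186 to 2388 CPM. PTPRC, which marks leukocytes, and SFTPC, a surfactant protein of lung alveolar cells, had 0 counts in all 4. PECAM1, which marks endothelium, and COL1A1, which marks fibroblasts, were at or below 0.843 CPM. A line kept in culture for long is a limited model of a lung tumour, and SFTPC was not detectable in it at this depth.

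Oxidative phosphorylation passes electrons from NADH through complex I, or from succinate through complex II, to ubiquinone and on through complex III, cytochrome c and complex IV to oxygen. Complexes I, III and IV move protons across the inner mitochondrial membrane as they do so, and complex V, the ATP synthase, lets the protons flow back to make ATP. Most subunits are nuclear-encoded, are made on cytosolic ribosomes and are joined in the mitochondrion to a small set of subunits encoded by mitochondrial DNA. Transcription factors known to act on many of these nuclear genes are NRF1 and the ETS factor GABP, and binding of YY1 has been described for some. Lung carcinoma lines commonly combine high glycolysis with active respiration.

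The promoter letters of these genes were read first, since members that shift together may share them. RefSeq promoters (GRCh38.p14, from 250 bases before to 50 bases after each gene's start) were found for 70 of the 87 genes and for 15843 protein-coding genes in all. An NRF1 word, GCGCA and GCGC with any base between them, was present on either strand in 17 of the 70 (24.29%) against 8.58% of all promoters. The ETS word CCGGAAG was present in 20 (28.57%) against 14.23%, and the YY1 word AANATGGCG in 16 (22.86%) against 4.81%. The word TATAAA was present in 7 (10.0%) against 9.63%. The ETS and YY1 words can share letters at their ends, and a single NRF1 stretch can match both strands. The shares differed by complex: the YY1 word was in 10 of 32 promoters of complex I and in 1 of 14 of complex IV, and the NRF1 word in 4 of 7 of complex III and in 1 of 14 of complex IV. Of the windows shown, each covers the 150 bases before the RefSeq start, 5' to 3' on the gene's strand, with matches to the 4 words in capitals. COX5A is shown because it passed the test described next, and the others because they hold the words in each of the other complexes. ATP5MF, which passed that test too, was not among the 70 genes with a promoter found. They are NDUFS3 (chr11:47578924-47579073, plus strand), SDHD (chr11:112086723-112086872, plus), UQCR11 (chr19:1605463-1605612, minus), COX5A (chr15:74938074-74938223, minus) and ATP5PF (chr21:25735055-25735204, minus).
NDUFS3: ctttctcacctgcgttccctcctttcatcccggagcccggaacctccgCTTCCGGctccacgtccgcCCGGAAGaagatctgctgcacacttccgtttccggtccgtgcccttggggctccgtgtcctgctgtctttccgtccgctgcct
SDHD: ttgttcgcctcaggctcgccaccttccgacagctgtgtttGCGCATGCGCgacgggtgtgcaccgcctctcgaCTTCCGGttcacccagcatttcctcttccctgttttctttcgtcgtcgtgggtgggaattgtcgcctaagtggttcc
UQCR11: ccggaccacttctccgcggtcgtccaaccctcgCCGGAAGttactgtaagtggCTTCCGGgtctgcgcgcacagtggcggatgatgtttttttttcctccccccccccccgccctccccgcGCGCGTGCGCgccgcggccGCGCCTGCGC
COX5A: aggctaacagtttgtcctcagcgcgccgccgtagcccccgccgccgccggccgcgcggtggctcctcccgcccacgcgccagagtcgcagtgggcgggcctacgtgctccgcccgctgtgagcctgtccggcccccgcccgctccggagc
ATP5PF: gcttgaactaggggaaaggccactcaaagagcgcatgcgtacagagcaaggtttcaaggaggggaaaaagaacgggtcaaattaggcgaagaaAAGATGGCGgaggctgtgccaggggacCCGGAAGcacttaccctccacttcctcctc
NDUFS3 and UQCR11 each carry the ETS word on both strands, SDHD and UQCR11 hold NRF1 words as well, and ATP5PF has a YY1 and an ETS word. The COX5A window holds none of the 4. A match is a run of letters and not a bound site, and no match says only that these letters are not in this window.

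With nanoparticles the nuclear oxidative phosphorylation genes lay slightly lower, together and by small amounts. By edgeR, 2 single genes passed as lower: COX5A, a subunit of complex IV, and ATP5MF, a membrane subunit of the ATP synthase. Neither call held with DESeq2 or with the trend of fold change with transcript length removed. Of the 80 genes tested, 74 had a fold change below 0 and 6 above it, where 49.8% of all genes tested lay below 0. The median log2 fold change (nanoparticle minus PBS) was -0.071, against 0.00056 over all 15778 genes. The summed level of all 87 genes was 10794 and 10773 CPM in the PBS libraries and 10404 and 10279 CPM in the nanoparticle libraries. Both nanoparticle sums were below both PBS sums, with a difference of -4.10% between the means. With 2 libraries a group the exact two-sided permutation test of these sums gave p = 0.333, the smallest it can give.

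By edgeR's quasi-likelihood test, 2 of the 80 genes (2.5%) passed at a Benjamini-Hochberg adjusted p of 0.05 as lower, where 0.83% of all genes did. None passed as higher, where 1.75% of all genes did, and none had an unadjusted p under 0.05 as higher by edgeR, DESeq2 or limma-voom. At an unadjusted p under 0.05, 34 genes (42.5%) were lower, against 7.61% of all genes. With the trend of fold change with transcript length removed these were 13 (16.2%) against 6.88%, and with length and GC trends removed 14 (17.5%) against 6.86%. Both nanoparticle libraries were below both PBS libraries for 59 of the 80 genes (73.8%), against 23.2% of all genes, and above them for 2 (2.5%), against 23.7%. The other 19 overlapped. DESeq2 called none of the 80, where it called 0.152% of all genes lower, and had 11 (13.8%) lower at an unadjusted p under 0.05, against 2.52% of all genes. Limma-voom called 2 lower, against 0.976% of all genes, and had 36 (45%) at an unadjusted p under 0.05, against 7.74%. CPM are shares of each library, so a lower level of one group of transcripts cannot be told apart from a higher level of others, nor fewer expressing cells from less RNA per cell.

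**Figure D1:**
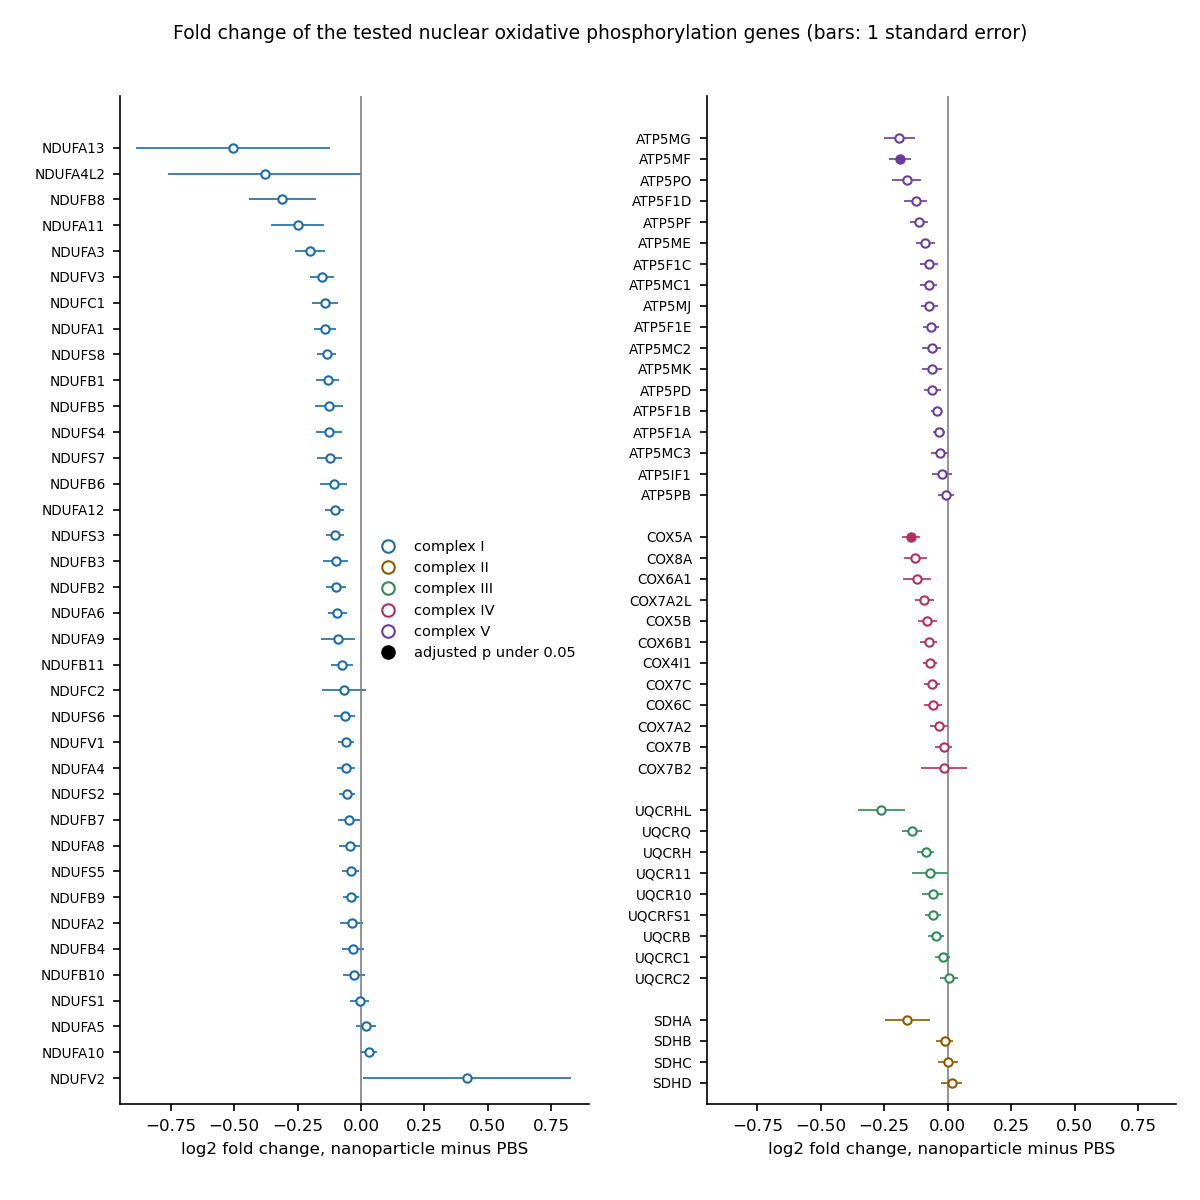
Fitted log2 fold change (nanoparticle minus PBS) of each of the 80 tested genes on the horizontal axis, with bars of 1 standard error, by complex; filled points passed the adjusted threshold. Of the 80 points 74 lie left of 0, and the filled ones are ATP5MF at -0.19 and COX5A at -0.14.

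**Figure D2:**
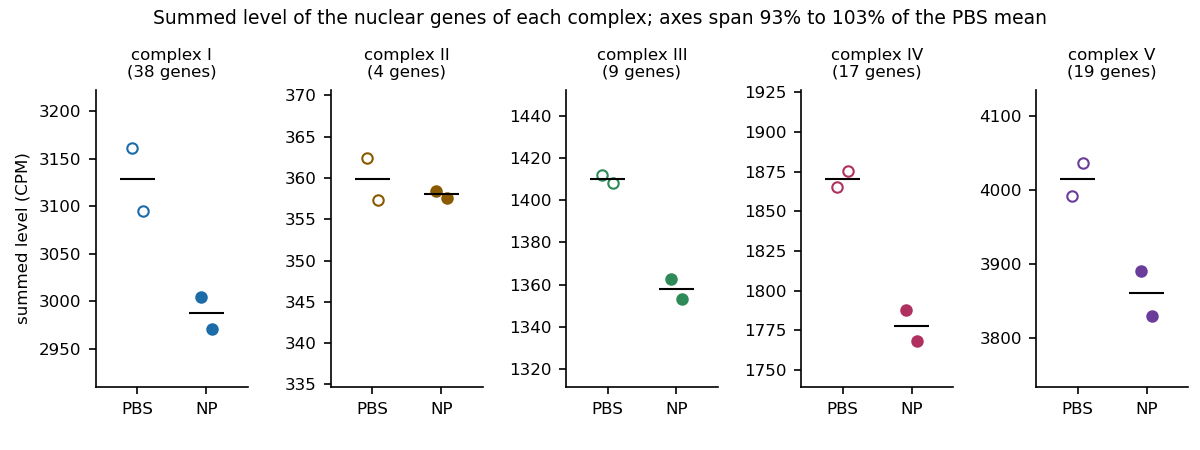
Summed level in CPM of all nuclear member genes of each complex in the 2 PBS and the 2 nanoparticle (NP) libraries, with group means as lines; the axes cover the same range relative to each PBS mean and do not start at 0. The groups are apart for complexes I, III, IV and V and overlap for complex II.

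Complex I, NADH dehydrogenase, takes electrons from NADH by a flavin and a chain of iron-sulphur clusters. Its 38 nuclear genes summed to 3161.7 and 3095.5 CPM in PBS and to 3004.2 and 2970.6 CPM with nanoparticles, a difference of -4.51% between the means without overlap. The median log2 fold change of the 37 tested was -0.093, with 34 below 0. None passed the adjusted threshold by edgeR, DESeq2 or limma-voom, and 15, 4 and 15 had an unadjusted p under 0.05 in these tests, all lower.

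Among the 7 catalytic core genes of complex I, 6 had a fold change below 0 and the median was -0.059. NDUFS8, an iron-sulphur subunit on the path to ubiquinone, was at 135.85 and 133.78 CPM in PBS and at 126.63 and 118.98 CPM with nanoparticles. Its groups did not overlap, with a log2 fold change of -0.13 (SE 0.038, edgeR adjusted p = 0.062). NDUFS3 and NDUFS7, the other core genes with an unadjusted p under 0.05, had log2 fold changes of -0.10 and -0.12 (edgeR adjusted p = 0.149 and 0.203). NDUFV1, which holds the flavin and the NADH site, was at 199.01 and 195.84 CPM against 192.6 and 186.35 (log2 -0.059). NDUFS1, the largest core subunit, was at 170.64 and 159.07 CPM in PBS and at 163.59 and 164.96 CPM with nanoparticles, where the groups overlapped (log2 -0.0050). NDUFV2, the core gene above 0, was at only 0.40 to 0.64 CPM in the 4 libraries, with both nanoparticle libraries higher (log2 0.42, SE 0.41, edgeR adjusted p = 0.679).

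Of the 30 tested accessory genes of complex I, 28 lay below 0, with a median of -0.096. NDUFA3 was at 35.468 and 37.361 CPM in PBS and at 31.966 and 31.393 CPM with nanoparticles. The nanoparticle libraries were both lower (log2 -0.20, SE 0.057, edgeR adjusted p = 0.069). NDUFA1, whose product is needed for assembly of the complex, was at 77.318 and 76.199 CPM against 68.774 and 70.382 (log2 -0.14, edgeR adjusted p = 0.076). NDUFV3 was at 59.113 and 56.601 CPM against 52.811 and 51.209 (log2 -0.15, edgeR adjusted p = 0.093). Against this, NDUFA10 was at 159.85 and 160.27 CPM in PBS and at 164.43 and 162.59 CPM with nanoparticles, one of the 2 members with both nanoparticle libraries higher (log2 0.031, edgeR adjusted p = 0.707). The core gene NDUFV2 was the other. NDUFB9, the gene with the highest level per length in this complex, was at 253.44 and 252.09 CPM against 245.61 and 246.2 (log2 -0.040).

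Complex II, succinate dehydrogenase, links the tricarboxylic acid cycle to ubiquinone and has no mitochondrially encoded subunit. Its 4 genes summed to 362.41 and 357.33 CPM in PBS and to 358.39 and 357.62 CPM with nanoparticles, a difference of -0.517% with overlapping groups (exact two-sided permutation p = 1), and without PBS replicate 1 the difference was 0.190%. The median log2 fold change was -0.0060 (0.0036 without the low-count filter), and none of the 4 had an unadjusted p under 0.05 by edgeR, DESeq2 or limma-voom. SDHB, the iron-sulphur subunit, was at 174.15 and 168.6 CPM in PBS and at 170.15 and 169.71 CPM with nanoparticles (log2 -0.012, SE 0.034). SDHC and SDHD, the membrane anchors, had log2 fold changes of 0.00023 and 0.016, and for both the groups overlapped. SDHA, the flavin subunit, was at 12.901 and 13.468 CPM against 11.642 and 11.978, the 1 gene of the 4 whose groups did not overlap (log2 -0.16, SE 0.088, edgeR adjusted p = 0.385). Its counts are uncertain, as given below. The difference between complex II and the other complexes was not tested, and its median rests on 4 genes.

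Complex III, the cytochrome bc1 complex, passes electrons from ubiquinol to cytochrome c. Its 9 genes summed to 1412 and 1408.2 CPM in PBS and to 1362.8 and 1353.1 CPM with nanoparticles, a difference of -3.69% without overlap. The median log2 fold change was -0.059, none passed by edgeR, DESeq2 or limma-voom, and 3, 2 and 3 had an unadjusted p under 0.05. UQCRQ, a small subunit that sits by cytochrome b, was at 118.0 and 124.39 CPM in PBS and at 113.62 and 106.36 CPM with nanoparticles. Its nanoparticle libraries were both lower (log2 -0.14, SE 0.040, edgeR adjusted p = 0.071). UQCRH, the hinge protein, was at 218.65 and 212.49 CPM against 200.6 and 205.24 (log2 -0.087, edgeR adjusted p = 0.174). UQCRFS1, the Rieske iron-sulphur protein and catalytic subunit, was at 238.97 and 248.51 CPM against 234.89 and 233.09 (log2 -0.059). The core proteins UQCRC1 and UQCRC2 had log2 fold changes of -0.020 and 0.0051. The 6 accessory genes together differed by -5.39% in summed level, and the 2 core proteins by -0.799%.

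Complex IV, cytochrome c oxidase, reduces oxygen, and its catalytic subunits are encoded by mitochondrial DNA, so the nuclear genes here encode subunits around that core. The 17 genes summed to 1865.5 and 1875.1 CPM in PBS and to 1787.6 and 1768.4 CPM with nanoparticles, a difference of -4.94% without overlap. All 12 tested had a fold change below 0 (median -0.073, and -0.017 with the length trend removed), and 7, 2 and 7 had an unadjusted p under 0.05 by edgeR, DESeq2 and limma-voom. COX5A, whose product is an early partner of the COX4 subunit in the assembly of the oxidase, passed as lower by edgeR, though not in every analysis. It was at 151.54 and 153.47 CPM in PBS and at 140.39 and 135.5 CPM with nanoparticles, with both nanoparticle libraries below both PBS libraries. Its log2 fold change was -0.14 (SE 0.035, edgeR adjusted p = 0.0296). COX5A lies at chr15:74919791-74938168 on the minus strand in GENCODE 29 (GRCh38).

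The next smallest p-values of complex IV were those of COX8A and COX4I1. COX8A was at 72.643 and 78.66 CPM against 70.294 and 68.131 (log2 -0.13, edgeR adjusted p = 0.148). COX4I1, the largest nuclear subunit of the oxidase, was at 443.19 and 457.64 CPM in PBS and at 430.97 and 427.2 CPM with nanoparticles (log2 -0.070, edgeR adjusted p = 0.204). COX7A2L, which is known for joining complexes III and IV into supercomplexes, was at 134.45 and 127.61 CPM against 124.59 and 121.19 (log2 -0.093, edgeR adjusted p = 0.206). COX6B1, which faces the intermembrane space, had a log2 fold change of -0.075. For each of these 4 genes both nanoparticle libraries were below both PBS libraries. COX7B and COX7B2 overlapped between groups, each with a log2 fold change of -0.016.

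Complex V, the ATP synthase, has a catalytic F1 head, a membrane part with a ring of c subunits, and a stalk that holds the head still. Its 19 genes summed to 3992.1 and 4036.7 CPM in PBS and to 3890.6 and 3829.5 CPM with nanoparticles, a difference of -3.84% without overlap. All 18 tested had a fold change below 0 (median -0.069, and -0.018 with the length trend removed), and 9, 3 and 11 had an unadjusted p under 0.05 by edgeR, DESeq2 and limma-voom. ATP5MF, the f subunit of the membrane part, passed as lower by edgeR, again not in every analysis. It was at 66.395 and 69.532 CPM in PBS and at 59.692 and 59.61 CPM with nanoparticles, without overlap. Its log2 fold change was -0.19 (SE 0.045, edgeR adjusted p = 0.027). ATP5MF lies at chr7:99448475-99466331 on the minus strand in GENCODE 29 (GRCh38), and its exons are shared in part with PTCD1 and a read-through gene.

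By part of the synthase, the 5 F1 head genes had a median log2 fold change of -0.066, the 4 stalk genes -0.087 and the 8 tested membrane genes -0.074. In the head, ATP5F1B, the catalytic beta subunit, was at 1151.9 and 1177.7 CPM in PBS and at 1142.8 and 1117.4 CPM with nanoparticles (log2 -0.044, SE 0.022, edgeR adjusted p = 0.335). ATP5F1A, the alpha subunit, was at 601.29 and 598 CPM against 590.56 and 580.5 (log2 -0.034). ATP5F1D, the delta subunit of the rotor, was at 124.38 and 118.44 CPM against 117.22 and 105.19 (log2 -0.13, edgeR adjusted p = 0.144). The fold changes of ATP5F1A and ATP5F1B were thus smaller than those of the other head genes. In the stalk, ATP5PF was at 132.39 and 135.89 CPM against 125.15 and 123.04, without overlap (log2 -0.11, SE 0.035, edgeR adjusted p = 0.098), while ATP5PB overlapped (log2 -0.0078). In the membrane part, ATP5MG was at 30.658 and 30.873 CPM against 26.805 and 27.132 (log2 -0.19, edgeR adjusted p = 0.101). ATP5IF1, which blocks the synthase from running backwards, was at 93.052 and 93.291 CPM in PBS and at 90.178 and 93.254 CPM with nanoparticles, and its groups overlapped (log2 -0.023, SE 0.039).

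**Figure D3:**
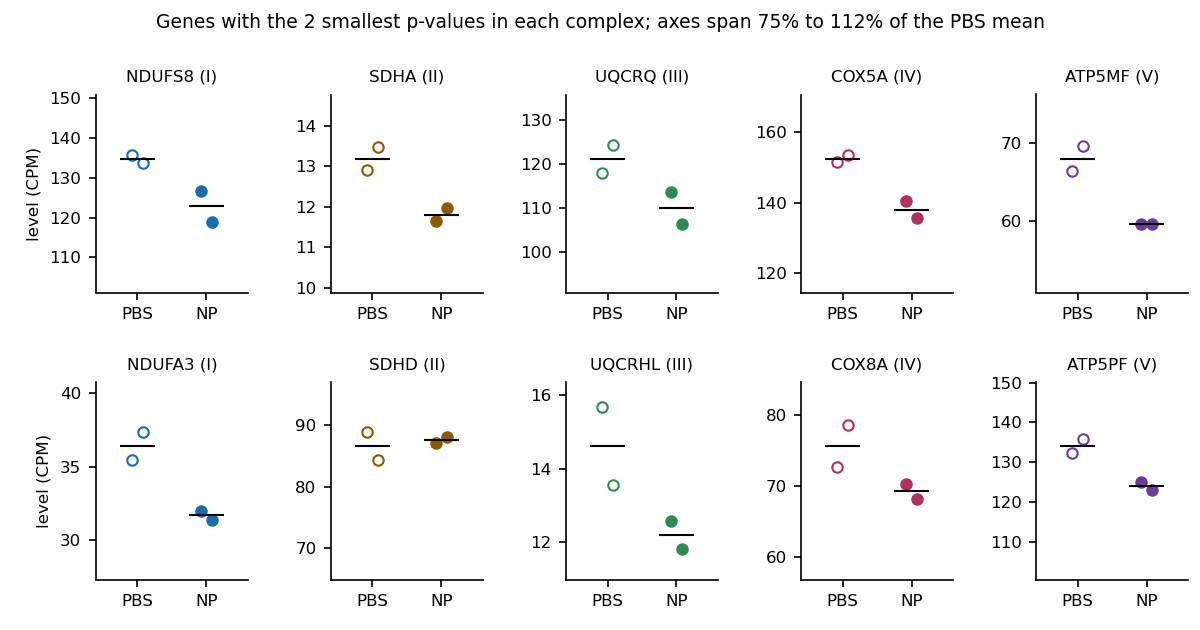
Level in CPM of the genes with the 2 smallest p-values in each complex, in each PBS (open) and nanoparticle (NP, filled) library, with group means as lines; the axes cover the same range relative to each PBS mean and do not start at 0. COX5A and ATP5MF passed the threshold, and SDHD is the 1 gene of the 10 whose groups overlap. The 10 genes were picked by p-value from these same libraries, so the separation of their groups is no added support.

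The calls of COX5A and ATP5MF did not hold in every analysis. With the trend of fold change with transcript length removed, they had log2 fold changes of -0.089 and -0.14 (edgeR adjusted p = 0.233 and 0.124). Neither passed with DESeq2, where the fold changes were about as large (-0.15 and -0.19) and 24 of all 15778 genes were called lower. Neither passed with any 1 of the 4 libraries left out (COX5A between -0.12 and -0.17, ATP5MF between -0.16 and -0.22) or without the low-count filter (-0.14 and -0.18). No gene at all passed without PBS replicate 1, without PBS replicate 2 or without the filter, so those 3 analyses say nothing about single genes, and 45 and 21 of all genes were called lower without nanoparticle replicates 1 and 2.

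Transcript length moved with the fold changes of all genes, and these genes are short. The tested members had a median transcript length of 861 bases, against 2582 over all tested genes. Among genes above 5 CPM sorted into 10 bins by length, genes of 81 to 1139 bases, the shortest bin, had a median log2 fold change of -0.058, and the longest bin had 0.083. The 50 members in the shortest bin had a median of -0.078. The 8 members of the second bin had -0.084 against -0.043 for all of its genes, and the 6 of the third -0.039 against -0.026. The 4 of the fourth had -0.11 against -0.0094. The longer bins held 2 members at most each, with medians between -0.061 and -0.030, where all genes of those bins had medians between -0.0055 and 0.083. The members' median thus lay below that of all genes in every bin that held any. However, the members longer than 4173 bases were only NDUFA10, NDUFV3, UQCRB, NDUFA9 and SDHC. Their annotated lengths are uncertain, so their place in these bins is too. With the length trend removed, 61 of 80 members lay below 0 and the median was -0.035. Removing trends with length and GC content gave -0.029. By complex the medians with the length trend removed were -0.049 for I, -0.048 for II, -0.031 for III, -0.017 for IV and -0.018 for V. In complex II that value is set by SDHC, whose annotated transcript of 13566 bases is long for the family and uncertain. Other genes than COX5A and ATP5MF passed then. NDUFV3 passed with the length trend removed, alone or with GC content (log2 -0.18 in both, edgeR adjusted p = 0.0477 and 0.0389). UQCRB, a complex III subunit, passed with both trends removed (log2 -0.11, edgeR adjusted p = 0.0386). Their annotated lengths of 4676 and 5575 bases are likewise uncertain. Over the 80 members, Spearman's rho of the fold change was 0.20 with length, -0.34 with GC content and 0.48 with level. Members share libraries, so these values only describe them.

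**Figure D4:**
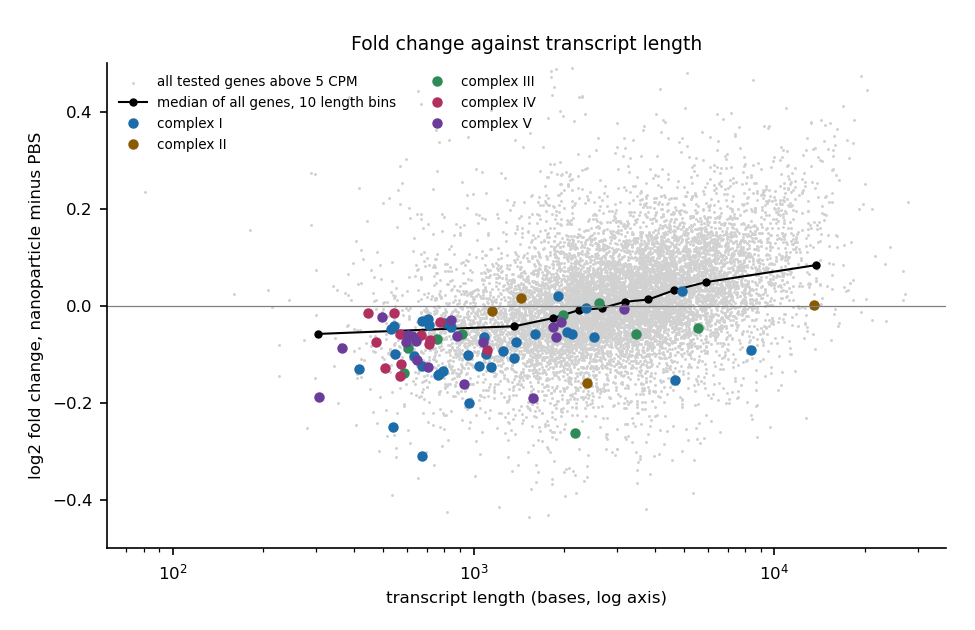
Log2 fold change (nanoparticle minus PBS) against transcript length in bases (log axis) for tested genes above 5 CPM (grey), with the median of 10 length bins as a black line and member genes coloured by complex. The line climbs from -0.058 for the shortest genes to 0.083 for the longest, and 50 of the plotted members fall in the shortest bin.

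Fold changes were set beside the promoter words. Tested genes with the NRF1 word had a median log2 fold change of -0.074 (16 genes) and those without it -0.075 (50 genes). The medians were -0.084 with the ETS word (20 genes) and -0.074 without (46 genes), and -0.092 with the YY1 word (15 genes) and -0.075 without (51 genes). The gap was widest for TATAAA, at -0.037 with the word (5 genes) and -0.075 without (61 genes), or 0.0086 and -0.031 after removal of the length trend. These differences were not tested. Of the factors themselves, NRF1 was at 32.231 and 30.784 CPM in PBS and at 31.046 and 32.84 CPM with nanoparticles, overlapping. GABPA, the DNA-binding subunit of GABP, was at 46.526 and 47.339 CPM against 50.37 and 53.219, higher in both nanoparticle libraries (log2 0.14, SE 0.050, edgeR adjusted p = 0.142).

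Levels between genes were compared as CPM per kilobase of transcript. In PBS the 60 genes with a usable length and little same-strand overlap had a median of 144.7, with 96.6 in complex I, 119.3 in III, 280.9 in IV and 231.0 in V. The highest were ATP5F1B (626.35 and 640.41 per kilobase in the PBS libraries) and COX4I1 (618.98 and 639.17), whose values overlap, and then COX6B1 (494.67 and 511.16), which lay below both. In complex I the order ran from NDUFB9 (355.5) to NDUFB6 (32.1), and in complex III from UQCRH (356.9) to UQCRC2 (56.0). Both nanoparticle libraries gave ATP5F1B the first place as well, at 621.44 and 607.59 per kilobase. The medians of complexes IV and V were thus above those of complexes I and III in PBS, and with nanoparticles too (269.9 and 226.1 against 88.8 and 116.5).

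For the paralogous subunits of COX4, COX6A, COX6B and COX8 the cells used the widely expressed form almost alone. COX4I2, the form of COX4 known from lung and from low oxygen, had 0 counts in all 4 libraries against 9859 to 10772 for COX4I1. That allows a share of up to 0.0304% in the library with the fewest (3 counts; counting error only). COX6A2 and COX7A1, forms of heart and skeletal muscle, had at most 1 count a library. COX8C had 1 count in 1 library and COX6B2, a testis form, between 0 and 4. COX7B2 differed from these forms: it had 277 and 260 counts in PBS and 300 and 294 with nanoparticles. These were 8.38% and 7.99% of COX7B and COX7B2 together in PBS and 8.19% and 8.18% with nanoparticles (Wilson 95% intervals between 7.10% and 9.37%), so no shift was detectable at this depth.

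The c subunit of the membrane ring is encoded by 3 genes that give the same mature protein. ATP5MC2 held 39.7% and 40.5% of their counts in PBS and 39.96% and 39.83% with nanoparticles. ATP5MC3 held 32.0% and 32.1% against 32.8% and 32.4%, and ATP5MC1 28.3% and 27.4% against 27.2% and 27.8%. The groups overlapped for ATP5MC1 and ATP5MC2, and the ATP5MC3 share was slightly higher in both nanoparticle libraries. NDUFA4L2, a paralogue of NDUFA4 known to be induced by low oxygen, had 11 and 17 counts in PBS and 12 and 12 with nanoparticles, against 2602 to 2884 for NDUFA4. NDUFA4 is grouped here with complex I by its symbol, though its product is now placed with complex IV, and moving both genes changed neither median beyond the spread between replicates.

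UQCRHL, a gene nearly identical to UQCRH in its coding part, took 6.69% and 5.998% of the pair's counts in PBS and 5.89% and 5.44% with nanoparticles. Its log2 fold change was -0.26 (SE 0.092, edgeR adjusted p = 0.144). Of the 50-base words of UQCRH, 29.4% also occur in UQCRHL or elsewhere, so the split between them is uncertain.

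Several members had levels far below those of their complex, and most of these have exons that overlap another annotated gene on the same strand. In 7 members at least 40% of exon bases were shared in this way. In PBS NDUFV2 (82.9% shared) was at 0.434 CPM per kilobase, NDUFA7 (75.9%) at 0.634, NDUFA13 (44.1%) at 0.634, NDUFB8 (71.7%) at 8.49 and NDUFA11 (67.0%) at 16.8. The 23 complex I genes with little overlap lay between 32.1 and 255.7, with a median of 100.2. In complex V ATP5PO (70.3%) was at 39.1, below the lowest of the 14 genes with little overlap (80.1), while ATP5MF (46.2%) was at 222.8, close to their median of 219.2. The overlapping loci had 10, 2, 10 and 10 counts in the 4 libraries for NDUFA13, at most 1 for NDUFA7 and 0 for NDUFA11, NDUFB8, NDUFV2 and ATP5PO. PTCD1, which overlaps ATP5MF, differed from these with 268 and 244 counts in PBS and 259 and 253 with nanoparticles. The 7 genes with at least 20% overlap on the opposite strand only lay between 62.0 and 355.5, with a median of 100.2. HTSeq sets a read aside as ambiguous when it falls in more than 1 gene, in its usual mode, and 4.79% to 4.81% of reads were ambiguous in each library. Whether these reads came from the genes named was not tested. The limits of 40% and 20% were chosen after the values were seen. SDHA, at 5.52 per kilobase, had no such overlap, but 22.3% of its 50-base words occur elsewhere, as in the pseudogene SDHAP1. Without members of at least 10% overlap or 10% such words, 68 remained, whose sum differed by -3.93%. The 63 of them that were tested had a median log2 fold change of -0.064, and 1 passed (COX5A).

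**Figure D5:**
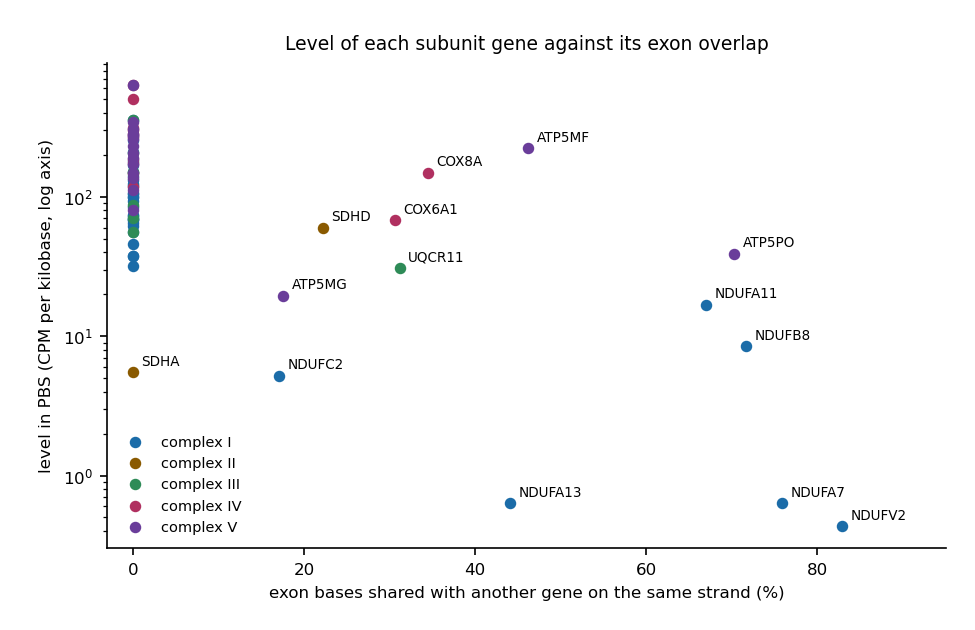
Level in PBS (CPM per kilobase of transcript, log axis) against the percentage of exon bases shared with another gene on the same strand, for member genes with a usable length and without tissue-restricted paralogues. NDUFA7, NDUFA13 and NDUFV2 lie below 1 CPM per kilobase and share 44.1% to 82.9% of their exon bases, and ATP5MF is high with 46.2% shared.

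Related genes were taken by function. Of 49 tested assembly factors, which build the complexes without being part of them, none passed by edgeR, DESeq2 or limma-voom, 6, 1 and 7 had an unadjusted p under 0.05, all lower, and the median log2 fold change was -0.043. A list of 9 genes held cytochrome c, the phosphate and adenine nucleotide carriers, the outer membrane channels and the acyl carrier NDUFAB1. NDUFAB1 is also a complex I subunit, which the symbol rule missed as no digit follows NDUFA. None of the 9 passed by any of the 3 tests (1, 0 and 1 at an unadjusted p under 0.05, lower, which was NDUFAB1 by edgeR), with a median of -0.032. Of 13 tricarboxylic acid cycle genes none passed by the 3 tests (1 in each at an unadjusted p under 0.05, lower, which was FH by edgeR), with a median of -0.024. At that p, 7.61%, 2.52% and 7.74% of all genes were lower by edgeR, DESeq2 and limma-voom. The counts of these lists were not tested against those shares. Of 12 regulators of mitochondrial biogenesis none passed by the 3 tests (1, 0 and 1 at an unadjusted p under 0.05, higher, which was GABPA by edgeR), with a median of 0.036. With the length trend removed the medians of the 4 lists, in the same order, were -0.022, -0.0064, -0.021 and 0.0074, against -0.035 for the tested members. They were nearer to 0 than the members' median in both analyses, by less with the trend removed, and the differences were not tested.

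The 13 mitochondrially encoded subunits, which join the nuclear ones in complexes I, III, IV and V, had a median log2 fold change of 0.27, the opposite sign. They summed to 2722.3 and 3825.3 CPM in PBS and to 3273.9 and 4533.1 CPM with nanoparticles, so the groups overlapped. In both groups the sum was higher in replicate 2. MT-ND5, at 130.72 and 182.65 CPM in PBS and 179.48 and 255.04 CPM with nanoparticles, passed as higher although its groups overlapped (log2 0.47, edgeR adjusted p = 0.0302). MT-ND6, at 9.53 and 11.052 CPM in PBS and 15.883 and 30.348 CPM with nanoparticles, passed too (log2 1.17, edgeR adjusted p = 0.00165). Neither passed with DESeq2 (90 of all genes called) or without PBS replicate 1 or 2, where no gene at all passed. Without nanoparticle replicate 2 the log2 fold changes were 0.20 for MT-ND5 and 0.63 for MT-ND6, and without PBS replicate 1 they were 0.25 and 1.06. Without PBS replicate 2 or nanoparticle replicate 1, MT-ND5 was at 0.73 and 0.70, and MT-ND6 at 1.28 and 1.56. Of the 13 genes 12 lay above 0, and MT-ND3 was at -0.066. With the length trend removed MT-ND5, MT-ND6 and MT-CO1 passed as higher (edgeR adjusted p = 0.0152, 0.000304 and 0.0477). Within complex IV, MT-CO1 was at 446.65 and 613.17 CPM in PBS and at 560.95 and 795.59 CPM with nanoparticles, overlapping, where COX5A and COX4I1 were lower in both nanoparticle libraries. The nuclear sums, at 10783 ± 14.7 CPM in PBS and 10341 ± 87.9 CPM with nanoparticles (SD, n = 2 per group), varied less between replicates.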

How the data were processed

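The data are whole-number read counts per Ensembl gene, deposited without normalization in 1 file per library. The authors' tools, per the submitters' processing notes, were HTSeq 2.0.2, STAR 2.7.6a, cutadapt 3.5, bcl2fastq 2.20 and Picard, on GRCh38. Neither the strand setting of the counting nor its annotation release is given in the sources used here. The 5 rows for reads given to no gene (13.7% to 14.8% of reads) were left out.

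Symbols came from a gene name table for 61369 rows. Coordinates, lengths (a principal transcript of median length) and overlaps came from GENCODE 29 on GRCh38, which may differ from the annotation used for counting. Genes were filtered with filterByExpr, scaled by TMM and tested with edgeR 4.0.16 (R 4.3.3; glmQLFit and glmQLFTest, two-sided, Benjamini-Hochberg adjustment over all 15778 genes, threshold 0.05). The common biological coefficient of variation came to 2.46%. Each standard error was taken from the fold change and its F statistic. Alternatives used DESeq2 1.42.0, limma-voom (limma 3.58.1), other scalings and filters, left-out libraries, and trends with length and GC content removed as an offset (robust spline, MASS 7.3.60.0.1, genes above 5 CPM). Figures were drawn with matplotlib 3.10.9. The procedure was tested on simulated data. Intervals and floors cover counting error only.

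The members and the related lists were chosen with earlier results of these data known. Genes named by rule were those past the threshold, up to 4 with the smallest p and the 2 most abundant per length in each complex, paralogous subunits, catalytic subunits, ATP5IF1, and related genes past the threshold. Other genes named (NDUFS3, NDUFS7, NDUFA10, NDUFV2, UQCRC1, UQCRC2, UQCRB, ATP5PB, genes with overlapping exons, NDUFAB1, FH, GABPA, NRF1, MT-ND3 and MT-CO1) were chosen after their values were seen. Replicates were compared first: chi-square per degree of freedom was 1.78 in PBS and 1.95 with nanoparticles, so none was treated as a copy.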

Additional observations from a re-analysis of the deposited data

How the results depend on the processing

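Of the 80 tested members 2 were lower at the adjusted threshold. Over all genes 131 were. This count was 4 with upper-quartile scaling (190 over all genes), 5 where the filter asked for 50 counts on average (212), 0 without the low-count filter (0), 0 with DESeq2 (24), 1 with the length trend removed (120; NDUFV3), 2 with length and GC trends removed (144; NDUFV3 and UQCRB, neither of the reported 2), 1 among members with little overlap or few copies (chosen after seeing the data), and 0 to 1 with each library left out (the 1 was ATP5F1D, without nanoparticle replicate 1, with 45 over all genes, 21 without nanoparticle replicate 2 and 0 without either PBS replicate). With the replicate block it was 6 (272 over all genes). Calls in both directions over all genes were then 759, against 407 in the main analysis. The labels share only a replicate number. Over 11107 genes same-numbered libraries deviated together with a correlation of 0.036, so the numbers were not taken as pairs. The sums of the mitochondrially encoded genes, however, were higher in replicate 2 of both groups. No member passed as higher in any of the analyses above. The median of all members was -0.084 with upper-quartile scaling, -0.035 with the length trend removed and -0.029 with length and GC trends removed. In that order it was -0.049 and -0.055 (the 2 trends only) for complex I, -0.019, -0.048 and -0.052 for complex II, -0.072, -0.031 and -0.036 for complex III, -0.085, -0.017 and -0.022 for complex IV, and -0.082, -0.018 and -0.021 for complex V. Without the low-count filter complex II was at 0.0036, complex III at -0.049 and complex IV at -0.063, and with total counts complex III was at -0.054. Among members with little overlap complexes III and IV were at -0.052 and -0.066. With each library left out the medians ran from -0.092 to -0.079 for complex I, -0.029 to -0.0012 for II, -0.068 to -0.054 for III, -0.080 to -0.062 for IV and -0.077 to -0.060 for V, and the summed difference of complex II from -1.21% to 0.190%.

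Over 38 named genes and their alternatives, 469 values kept direction and side of the threshold, 16 lost the call (8 each for COX5A and ATP5MF), 12 gained one and 34 changed sign, all of the last without a call. With the length trend removed, then length and GC, the log2 fold changes that turned were 0.033 and 0.033 for ATP5IF1, 0.023 and 0.020 for ATP5MC3, 0.021 and 0.013 for COX7A2, 0.038 and 0.020 for COX7B, 0.040 and 0.012 for COX7B2, 0.016 and 0.015 for NDUFB9, 0.015 and 0.012 for NDUFS5, 0.035 and 0.029 for SDHB, -0.13 and -0.13 for SDHC, and 0.0050 (length only) for NDUFS1, which was 0.0045 without the filter. SDHC was also at -0.00090 with RLE scaling, -0.013 with upper-quartile scaling, -0.00016 with at least 50 counts and -0.00089 with DESeq2. With each library left out, ATP5IF1 ran from -0.047 to 0.0012, ATP5MC3 from -0.071 to 0.0079, COX7B2 from -0.065 to 0.032, NDUFS1 from -0.056 to 0.045, SDHB from -0.036 to 0.0096, SDHC from -0.037 to 0.036 and SDHD from -0.022 to 0.052. Where an arm was left with 1 library, it was assumed to vary like the other group. Fewer libraries make any call harder, and the cause of the other changes was not tested. Depth limits NDUFV2, NDUFA13 and NDUFA4L2, with at most 17 counts a library.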
